A study of Mus musculus with 160 samples.

Results

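The cells described here are the 41 single marrow stromal cells with the most and the 41 with the least RNA of Adipoq, the gene of the fat hormone adiponectin, out of 160 cells in the series. Cells were kept when at least 600 named genes were listed at 1 FPKM or more (FPKM divides a gene's fragments by its length and by the fragments mapped in that cell), which left 67 of 82 young and 58 of 78 old cells. Within each age the kept cells were ranked by Adipoq FPKM, and divided into 3 parts. The upper part (the high set) was compared with the lower (the low set), 22 against 22 young cells and 19 against 19 old cells, and the 23 young and 20 old cells between them form the middle set. The sorted cells came from the bone marrow of C57BL/6J mice labelled as 9 weeks and 24 months old (10 weeks and 2 years in the protocol). They were gated as positive for the leptin receptor (LepR) and CD140a and negative for CD45, Ter119 and CD31, and each was captured in a well of its own on the Fluidigm C1 system, where wells with several cells had been left out by microscopy. Both ages share strain, tissue and gate, and no treatment or genetic change is given for either. The labels name no animal, so each age counts as 1 sample, and because the cells were chosen by a measured value of the same cells, every difference below is a description without a test.

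Adiponectin is secreted by fat cells and acts through receptors on liver, muscle and other tissues to raise insulin sensitivity. In bone marrow its RNA is also carried by leptin receptor positive stromal cells that hold no fat droplets. These cells surround the blood vessels, feed blood stem cells with Cxcl12 and Kitl, and can give rise to marrow fat cells as well as to bone-forming osteoblasts.

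The Adipoq promoter window is shown first because Adipoq divided the cells, and that of Ibsp beside it because Ibsp, which encodes bone sialoprotein, was the bone matrix gene that was higher in the Adipoq-high cells of both ages. Both run 5′ to 3′ from 250 bases before to 50 bases after the start site and come from RefSeq on GRCm38.p6, a later build than the mm9 of the deposited values. Adipoq lies on the plus strand at chr16:23146286-23146585 and Ibsp on the plus strand at chr5:104299037-104299336, and capitals mark each CCAAT (the letters bound by NF-Y) on either strand.
Adipoq promoter: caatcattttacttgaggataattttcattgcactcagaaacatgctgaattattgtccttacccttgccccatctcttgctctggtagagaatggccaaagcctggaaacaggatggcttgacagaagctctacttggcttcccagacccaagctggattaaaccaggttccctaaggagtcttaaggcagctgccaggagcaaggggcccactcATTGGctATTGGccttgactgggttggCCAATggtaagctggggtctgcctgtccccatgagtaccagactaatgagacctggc
Ibsp promoter: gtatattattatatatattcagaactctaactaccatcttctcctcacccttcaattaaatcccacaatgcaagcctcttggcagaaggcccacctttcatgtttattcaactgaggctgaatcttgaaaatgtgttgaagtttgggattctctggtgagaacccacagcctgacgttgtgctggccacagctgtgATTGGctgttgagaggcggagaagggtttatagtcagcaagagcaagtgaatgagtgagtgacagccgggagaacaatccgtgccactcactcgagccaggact
The Adipoq window held 3 CCAAT matches, at positions 217 to 221, 224 to 228 and 244 to 248 counted from 1 at its 5′ end, and the Ibsp window held 1, at positions 197 to 201. At least 1 CCAAT was found in 37.9% of 27025 promoter windows and in 48.8% of the 41 windows matched by symbol among the 60 genes that were higher in both ages. Neither window held TTGCNNAA (a C/EBP core), TGTGGT (a RUNX core) or the PPAR direct repeat with 1 base between its parts on either strand. These were found in 10.8%, 16.9% and 0.0444% of all windows and in 7, 4 and 0 of the 41. No CCAAT match overlapped another. The motifs and the windows shown were chosen after the gene results were seen.

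Adipoq had no wide gap at either limit between the sets. In the high set it had a median of 756 FPKM in young cells (460 to 42706) and 508 in old cells (307 to 1395), in the middle set 258 and 211, and in the low set 32.4 (0 to 110) and 53.02 (0 to 89.7). The cells nearest to the upper limit had 460 inside and 421 outside it in young cells and 307 and 290 in old cells. At the lower limit they had 110 inside and 156 outside, and 89.7 and 99.9. The low set is therefore mostly low in Adipoq rather than without it, since 19 of 22 young and 16 of 19 old cells were still listed at 1 FPKM or more. One young cell, at 42706 FPKM, lay far above the next at 2302, with 612 genes listed and a summed FPKM of 1319720. In the old high set summed FPKM reached 7384320 in one cell and 2911310 in another. The medians of the young and old high sets were 83723 and 69288. The 3 cells with Adipoq at 0 had 654 and 702 (young) and 748 genes (old) and summed FPKM of 255405, 445578 and 302241, where the medians of the young and old low sets were 61093 and 87464.

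**Figure D1:**
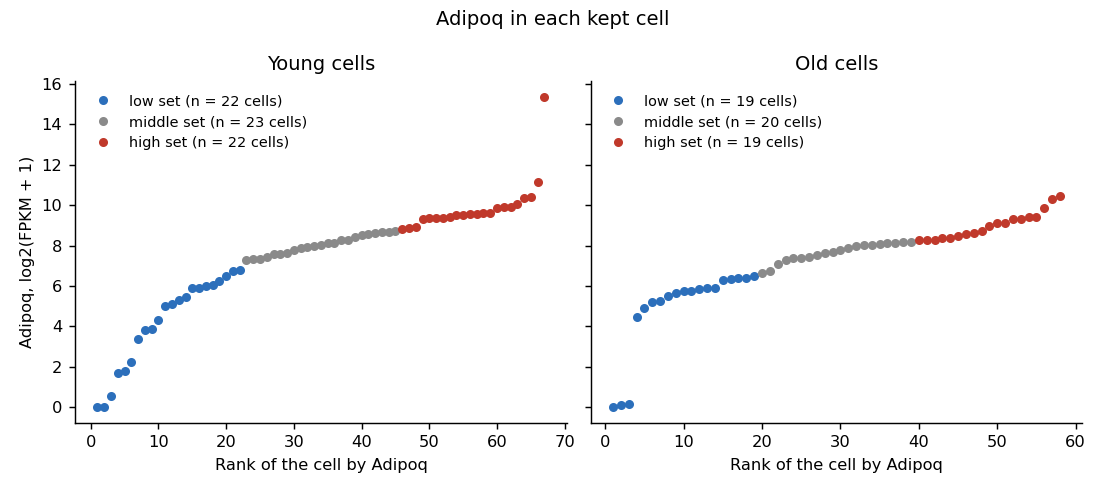
Adipoq as log2(FPKM + 1) in each of 67 young and 58 old kept cells, in order of rank, with colours for the sets. The values climb through the sets with no gap at either limit, 3 cells of each age lie below 1 FPKM, and 1 young cell stands above all others.

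Cells of the 2 sides differed in how many genes were listed, mainly at the young age. The median number of genes listed per cell (at 1 FPKM or more) was 1328.5 in young high and 953.5 in young low cells, and 1346 and 1249 in old cells. Over all kept cells the Spearman correlation of Adipoq with the number of genes was 0.37 in 67 young and -0.04 in 58 old cells. The median share of FPKM on rows without a gene name, which were not analysed, was 39.3% in high and 48.3% in low young cells, and 42.9% and 47.4% in old cells. Actb was listed in 82 of 82 cells, while Gapdh was listed at 0 in 9 and 12 young and in 5 and 10 old high and low cells, so a gene missing from a cell is described only as not listed at 1 FPKM. For the single genes below that left the rule in an age, or whose difference shrank by more than 1.5 times, after a straight-line fit on the number of genes in that age, the fitted difference is given too. Ribosomal and respiration genes are given as counts. Xist was listed in 30 of 38 old and 0 of 44 young cells, Y-linked RNA in 21 young and 0 old cells, so age and sex-linked RNA cannot be told apart in any comparison of the ages. The protocol counts the wells of each age apart, and whether the ages shared a run is not given.

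**Figure D2:**
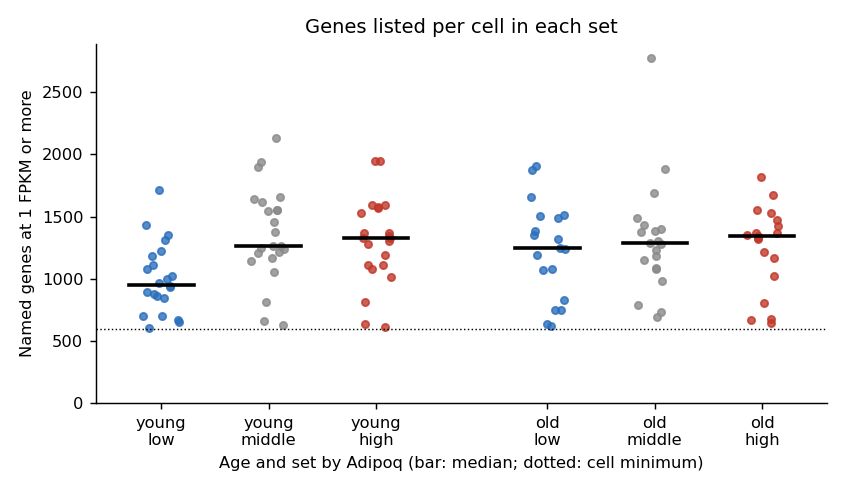
Number of named genes at 1 FPKM or more in each kept cell, by age and set of Adipoq, with a bar at the median. The median of the young low set lies below those of the other young sets (953.5, 1264 and 1328.5), the old medians are closer (1249, 1285 and 1346), and cells of all sets overlap; the dotted line is the minimum of 600 genes.

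Both sides carried the RNA of sorted marrow stroma. Cxcl12 was listed in 22 of 22 high and 22 of 22 low young cells and in 19 and 18 of 19 old cells, and Lepr in 22 and 22 young and 18 and 17 old cells. Pdgfra, the gene of the gated CD140a, was listed in 12 high and 5 low young cells but in 9 and 9 old cells. Ptprc (CD45) and Pecam1 (CD31) were listed in no cell of either side. No cell had 3 or more listed markers of blood, erythroid and megakaryocyte, endothelial, mural, cartilage or Schwann cells, and the median summed level of each of these lists was under 0.1 FPKM in each of the 4 sides. The highest summed levels were 760.8 FPKM for blood markers, in an old low cell, and 3352 for Schwann markers, in a young low cell. Their part in the differences was not tested.

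Most markers of mature fat cells were listed in neither set. Of 11 marker genes of mature fat cells, 10 were in the table, and Plin1 (the perilipin that coats fat droplets), Cidec, Lep, Retn, Cfd, Pck1 and Thrsp were listed at 1 FPKM in no kept cell. Fabp4, the fatty acid carrier, was listed in 5 of 22 high and 3 of 22 low young cells and in 0 old cells of either set. No cell had 3 or more of the 10.

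The comparison used the difference of mean log2(FPKM + 1), high minus low set, in each age apart. A gene counted as higher or lower where this difference was at least 1 and the share of cells listing it lay on the same side, and 1389 genes listed in at least 20% of the kept cells of each age were compared. In young cells 372 genes (26.8%) were higher and 22 (1.58%) lower in the Adipoq-high set, and in old cells 134 (9.65%) were higher and 109 (7.85%) lower. Higher in both ages were 60 genes (4.32%) and lower in both was 1 (0.072%). The 60 make 16.1% of the genes higher in young and 44.8% of those higher in old cells. The median difference over all genes was 0.51 in young and 0.04 in old cells, so a young difference is to be read against 0.51. After the fit on gene number the medians were 0.15 and 0.01, and 31 genes (2.23%) were higher and 2 (0.144%) lower in both ages. All 31 were among the 60. Across genes the differences of the 2 ages were only weakly related (Pearson r = 0.13 over 1389 genes, which are not independent replicates), and the highest Spearman correlation of any gene with Adipoq that both ages reached was 0.28.

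**Figure D3:**
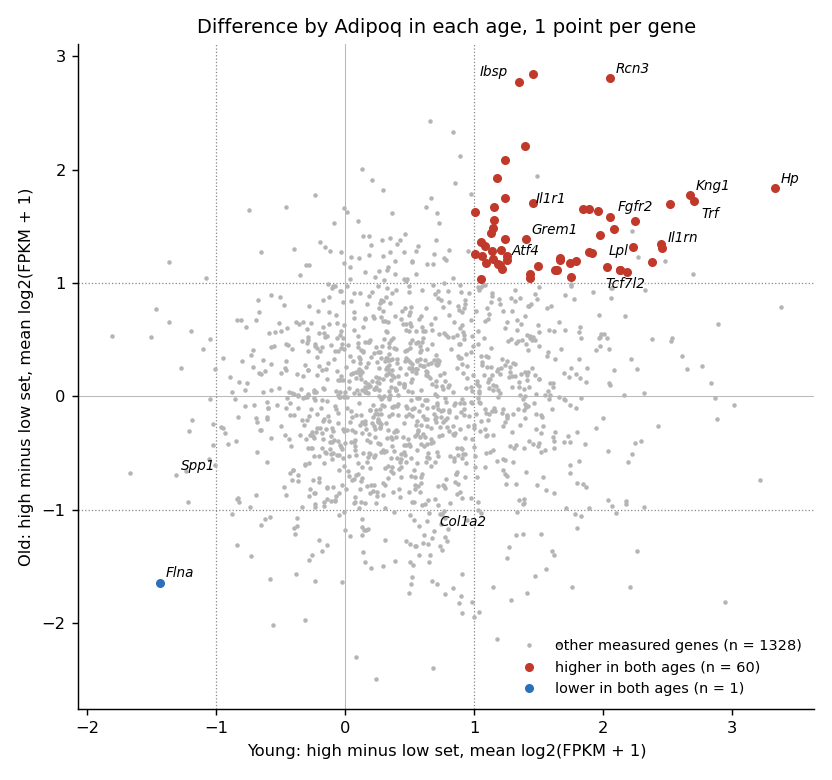
Difference of mean log2(FPKM + 1) between the high and low sets by Adipoq, young cells on the x axis and old cells on the y axis, 1 point for each of 1389 genes, with dotted lines at 1 and -1. The cloud is shifted to the right of 0 in young cells (median 0.51) and centred near 0 in old cells (0.04), with 60 genes in the upper right and Flna at the lower left.

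Among the 9 fat genes measured, the lipase gene Lpl had the largest difference in both ages, but none met the full rule in both. Of 73 fat genes other than Adipoq 71 were in the table. Of the 9 measured, 0 were higher and 0 lower in both ages, against 4.32% and 0.072% of all genes. In young cells 5 were higher and in old cells 0, against 26.8% and 9.65% of all genes. With 9 genes nothing is read from a count of 0. The median difference of the 9 was 1.22 in young and -0.11 in old cells, where all genes had 0.51 and 0.04. After the fit on gene number these medians were 0.65 and -0.19, where all genes had 0.15 and 0.01.

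Lpl encodes lipoprotein lipase, which frees fatty acids from blood lipoproteins for uptake. In the young low set it ran from 0.0435 to 240 FPKM with a median of 19.8, and in the young high set from 11.9 to 347 with a median of 87.8. In old cells the low set had a median of 36.2 FPKM (0 to 256) and the high set 93.0 (0.342 to 719). The sets overlapped at both ages, and their means of log2 differed by 2.27 in young and 1.23 in old cells (2.06 and 1.24 after the fit on gene number). Lpl was named after its values were seen: it missed the rule because 17 of 19 old cells listed it on each side. Among listing cells alone the level difference was 1.88 and 1.30.

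Of the other lipid carriers and hormones, Apoe, Rarres2 and Agt met the rule in young cells and none did in old cells. Whether the ages differ was not tested. Apoe, the lipoprotein ligand, differed by 1.42 in young and 0.79 in old cells, and 18 of 19 high against 14 of 19 low old cells listed it. Rarres2, which encodes the adipokine chemerin, differed by 1.501 and 0.57, with 14 high and 9 low old cells. Among listing cells alone Apoe differed by 0.99 in young and -0.51 in old cells, and Rarres2 by 0.89 and -2.34. Agt, the gene of angiotensinogen, differed by 1.79 and -0.10, and Igf1, an insulin-like hormone, by 0.03 and -0.66. After the fit on gene number the young differences of Apoe and Rarres2 were 0.65 and 0.45, and that of Igf1 was -0.57.

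Of the 3 measured regulators of fat cell formation, Klf9 met the rule in young cells and none did in old cells. Ebf1, a stromal and fat cell factor, differed by 0.67 in young and -0.38 in old cells. Klf9, a glucocorticoid-responsive factor of fat cell differentiation, differed by 1.22 and -0.26, and Cebpd by -0.18 and -0.11.

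Pparg and Cebpa, the central factors of fat cell formation, were too rarely listed to be measured. Pparg was listed in 3 of 22 high and 0 of 22 low young cells and in 1 of 19 high and 0 of 19 low old cells, with 5 young and 3 old cells of the middle set. Cebpa was listed in 5 high and 2 low young cells and in 4 and 4 old cells. Of the 62 fat genes under the filter, 14 were listed in no kept cell and 11 in more high than low cells at both ages. Those 11 were Pparg, Ebf2, Zfp423, Rxra, Lpin1, Abhd5, G0s2, Scd1, Nampt, Adipor1 and Insr. The reverse held for 0. Of 9855 genes of the whole table that were under the filter and listed in at least 1 kept cell, 12.6% were listed in more high and 7.8% in more low cells at both ages, and 22.9% and 0% of the 48 such fat genes. This tally was devised after values were seen, and the counts behind single genes are small: G0s2, an inhibitor of fat breakdown, was in 5 and 3 young and 7 and 4 old cells, and Nampt, which makes a precursor of NAD, in 4 and 1 and in 3 and 1. Insig1, a brake on sterol synthesis, was in 5 high and 9 low old cells and in 5 and 2 young cells (differences -1.42 and -0.05).

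**Figure D4:**
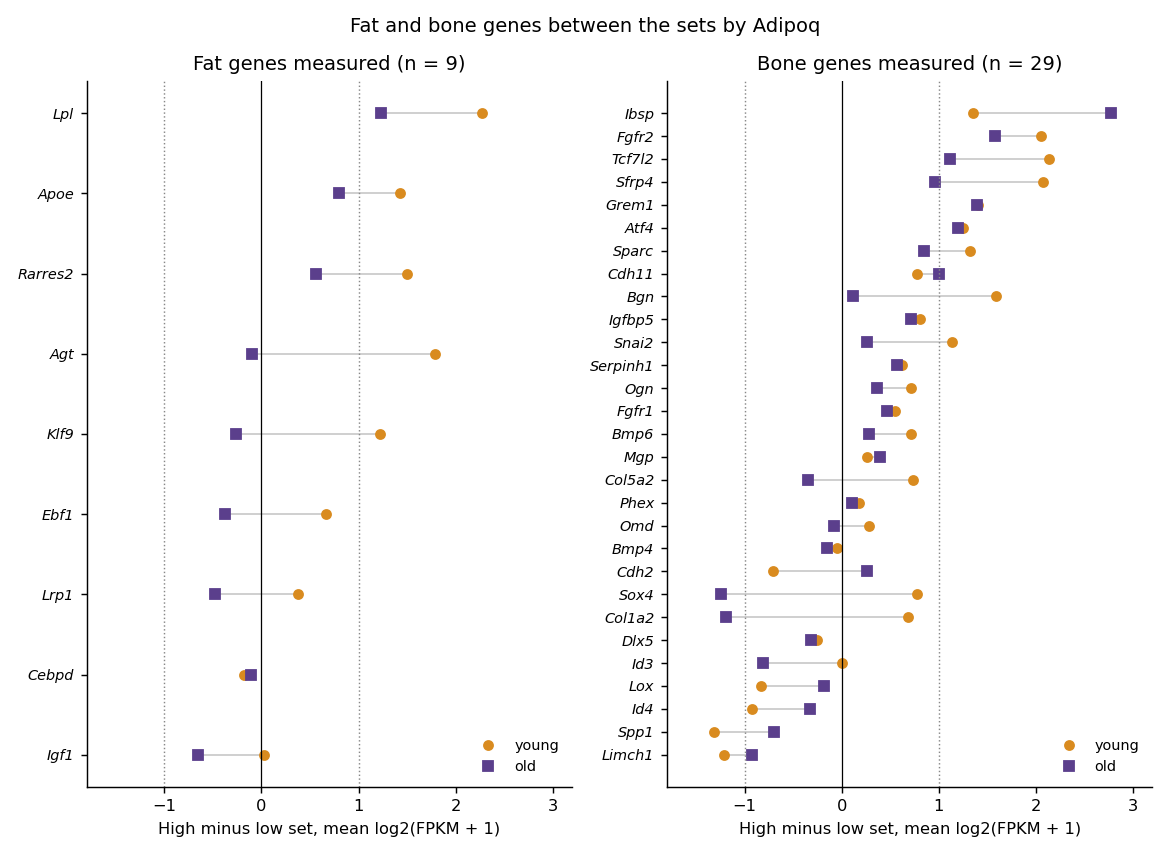
Difference of mean log2(FPKM + 1) between the high and low sets by Adipoq for the 9 fat and 29 bone genes measured, with circles for young and squares for old cells. Lpl leads these fat genes in both ages (2.27 and 1.23), Ibsp, Fgfr2, Tcf7l2, Grem1 and Atf4 lie at or above 1 in both ages, and Spp1 and Limch1 lie below 0 in both.

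Bone genes of several roles were higher in Adipoq-high cells of both ages. Of 71 bone genes 29 were measured, of which 5 were higher in both ages (Ibsp, Fgfr2, Grem1, Tcf7l2 and Atf4) and 0 lower, against 4.32% and 0.072% of all genes. All 5 stayed past the rule after the fit on gene number, but none did under every alternative. Of 16 alternatives, Tcf7l2 missed it in 6, Atf4 and Grem1 in 5 each, Ibsp in 4 and Fgfr2 in 2. The median difference of the 29 was 0.71 in young and 0.26 in old cells (0.42 and 0.22 after the fit on gene number).

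Ibsp encodes a matrix protein on which bone mineral forms. In old cells the high set ran from 95.0 to 1956 FPKM with a median of 612, and the low set from 0.0192 to 1074 with a median of 208. In young cells the high set had a median of 570 FPKM (9.01 to 2072) and the low set 248 (0.0698 to 4238). Values overlapped at both ages. Ibsp was listed in 22 of 22 young and 19 of 19 old high cells against 21 and 15 low cells. The differences were 1.35 in young and 2.78 in old cells. In young cells the middle set had the highest mean of log2 (9.35, against 8.91 in the high and 7.56 in the low set).

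Fgfr2, a receptor for fibroblast growth factors that acts in bone growth, had medians of 72.9 FPKM in high and 10.4 in low young cells (0.0563 to 498 and 0 to 318). In old cells the medians were 9.93 and 0.0195, with 14 of 19 high and 7 of 19 low cells listing it. Its differences were 2.06 and 1.58. Among listing cells alone the differences were 1.26 and -0.24, so the old difference lay in how many cells listed it. Grem1, which encodes gremlin, a secreted blocker of bone morphogenetic proteins, was listed in 12 high and 6 low young cells and in 9 and 4 old cells (differences 1.40 and 1.39). One young cell held 98.1% of the summed FPKM of Grem1 in the high set. Without the cell of highest Adipoq in each age, an alternative added after the data were seen, the smaller of its 2 differences was 0.92 and it missed the rule.

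Tcf7l2, a transcription factor of Wnt signalling, differed by 2.13 in young and 1.12 in old cells, with high-set medians of 32.3 and 30.3 FPKM and low-set medians of 10.4 and 13.5. Atf4, a factor of amino acid supply and osteoblast differentiation, was listed in 8 high and 2 low young cells and in 10 and 5 old cells (1.25 and 1.20). Sfrp4, a secreted Wnt antagonist, differed by 2.07 and 0.96, and Sparc, a collagen-binding matrix protein, by 1.32 and 0.84, so each missed the rule in old cells. After the fit on gene number Sparc also missed it in young cells (0.96).

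Some bone genes leaned the other way. Spp1 encodes osteopontin, a mineral-binding matrix protein, and was listed in 16 high and 20 low young cells and in 7 and 8 old cells, with differences of -1.31 and -0.69. Its young medians were 61.96 FPKM in high and 99.4 in low cells, and the sets overlapped from 0 up at both ages. Limch1, an actomyosin regulator, differed by -1.22 and -0.93, and by -0.99 in young cells after the fit on gene number. Col1a2, a chain of type I collagen, had opposite signs (0.69 and -1.19), and Mgp, an inhibitor of mineral deposit, differed by 0.26 and 0.39.

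Of the 71 bone genes, 42 were under the filter and 9 of these were listed in no kept cell. Runx2, the master factor of the osteoblast lineage, was listed in 2 high and 3 low young cells and in 0 and 2 old cells. Col5a1, Postn, Bmp2 and Wif1 were also listed in more low than high cells at both ages, whereas 0 of the 42 bone genes under the filter were listed in more high cells at both ages. Of the 33 bone genes under the filter listed in at least 1 kept cell, 18.2% were listed in more low cells at both ages, where all 9855 genes gave 7.8%, and 0% were listed in more high cells, where all genes gave 12.6%. Sp7, an osteoblast factor, was in 0 and 2 young and 1 and 1 old cells, Alpl, the alkaline phosphatase of bone, in 2 and 3 and in 2 and 2, and Bglap, osteocalcin, in no young cell and 1 old low cell. With so few cells per gene the order of the sides can turn on 1 or 2 cells.

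Outside fat and bone, genes of secreted plasma proteins and of interleukin-1 signalling were among those with the largest differences in both ages. Of 12 measured genes of acute phase, complement and iron, Hp, Trf and Il1rn were higher in both ages and 0 were lower (all genes 4.32% and 0.072%), and the list's median was 1.39 in young and 0.38 in old cells. All 3 stayed past the rule after the fit on gene number, when the list's medians were 0.92 and 0.35.

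Hp encodes haptoglobin, which binds free hemoglobin and is also secreted by fat cells. Its medians were 265 FPKM in high and 17.03 in low young cells, with 216 in the middle set, and 80.6, 41.1 and 6.39 in the high, middle and low sets of old cells. The order of the sets was thus the same at both ages, although the ranges overlapped (0.0493 to 3449 and 0 to 1119 in young, 0 to 625 and 0 to 548 in old cells). The differences were 3.33 and 1.84. Trf, the iron carrier transferrin, had medians of 129 and 14.2 FPKM in high and low young cells and 260 and 99.8 in old cells (2.70 and 1.72). In old cells the middle set of Trf lay below the low set (mean log2 5.41 and 5.72, against 7.44 in the high set).

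Kng1 encodes kininogen, the precursor of bradykinin, and was listed in 19 of 22 high (86.4%, exact 95% interval 65.1 to 97.1) and 11 of 22 low young cells (50%, 28.2 to 71.8). In old cells it was listed in 18 of 19 (94.7%, 73.97 to 99.9) and 11 of 19 (57.9%, 33.5 to 79.8). These intervals cover counting error over cells only. The differences were 2.67 and 1.78, and those of its paralog Kng2, with which it may share fragments, were 1.92 and 0.92 (1.02 in young cells after the fit on gene number). Il1r1, the interleukin-1 receptor, was listed in 20 high and 14 low young cells and in 15 and 8 old cells (1.84 and 1.65). Il1rn, which encodes the antagonist of that receptor, was listed in 14 high and 5 low young cells and in 10 and 6 old cells (2.46 and 1.31). Among listing cells alone the young and old differences were 1.40 and -0.27 for Kng1, 0.44 and -0.48 for Il1r1, and 1.28 and 0.09 for Il1rn.

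**Figure D5:**
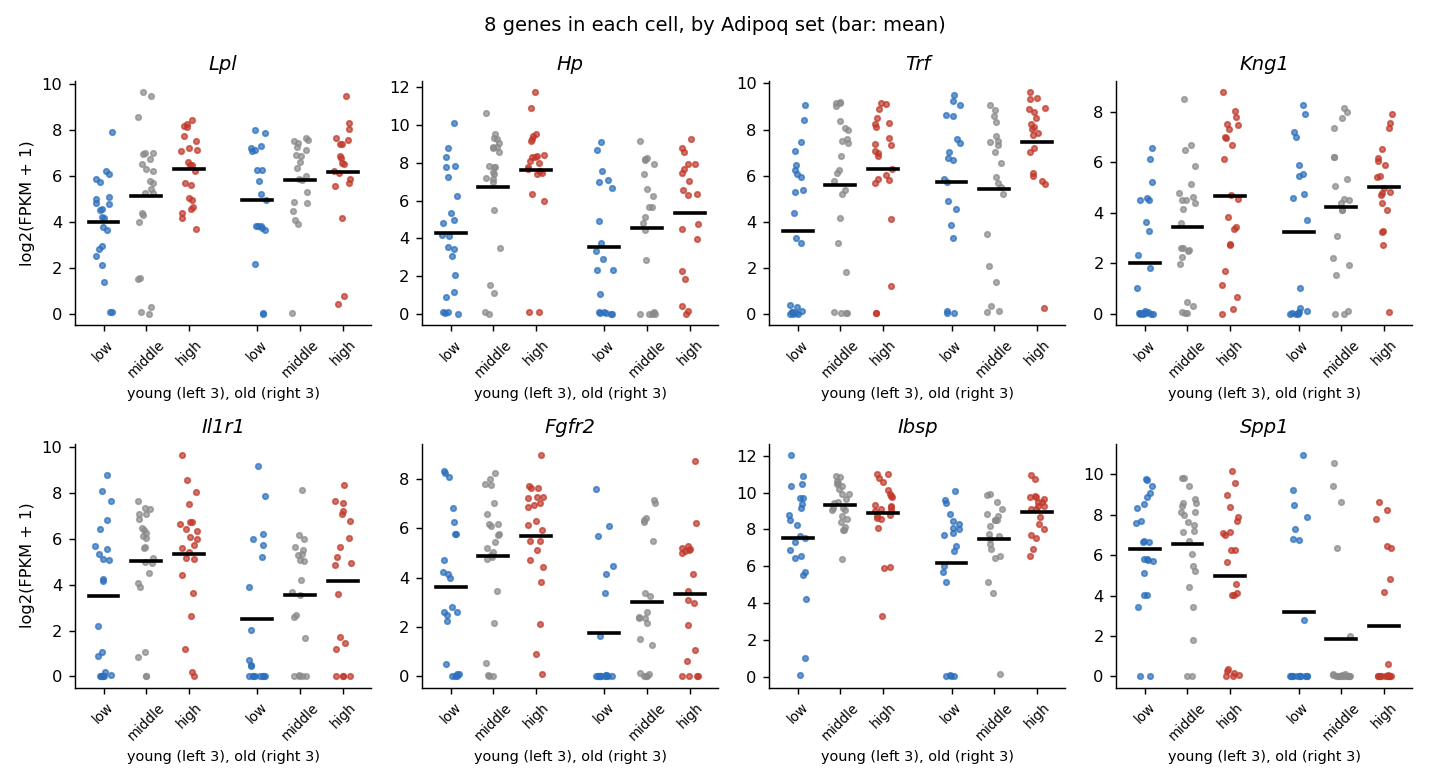
Log2(FPKM + 1) of 8 genes in each kept cell, by age and set of Adipoq, with a bar at the mean. For Lpl, Hp, Kng1, Il1r1 and Fgfr2 the bars climb from low to high at both ages, for Trf and Ibsp the middle set breaks the order in 1 age, Spp1 is lower in the high than in the low set, and cells of all sets overlap in all 8 genes.

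The other genes with the largest shared differences were varied in role. Rcn3, which encodes a calcium-binding protein of the endoplasmic reticulum that acts in collagen making, had the largest smaller difference of the 2 ages (2.06 in young and 2.81 in old cells). It was listed in 14 high and 7 low young cells and in 14 and 5 old cells. Among listing cells alone its differences were -0.42 and -1.08, so the difference lay in how many cells listed it. After the fit on gene number Rcn3 missed the rule in young cells by a small margin (0.9998). It missed the rule further with 2 sets per age and with cells of 1000 or more genes. There the smaller of its 2 differences was 0.437 and 0.0682. Spon1, a matrix-bound spondin, was in 16 and 7 young and 13 and 5 old cells (1.89 and 1.65). Picalm, a clathrin assembly protein, differed by 2.08 and 1.48, Cyb5, a cytochrome of lipid desaturation, by 1.98 and 1.43, and the joined row of the myosin light chains Myl12a and Myl12b by 2.25 and 1.55 (1.14 in young cells after the fit on gene number). Rgcc, a cell cycle regulator, differed by 2.24 and 1.31. Uqcrb, a subunit of respiratory complex III, differed by 1.96 and 1.63, and Epas1, a hypoxia-inducible factor, by 1.46 and 1.71. Both missed the rule after the fit on gene number (0.89 and 0.77 in young cells). For Epas1 the middle set had the highest mean of log2 at both ages. That mean was 4.725 in young and 5.641 in old cells, against 4.155 and 5.133 in the high sets.

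Flna, the actin cross-linking protein filamin A, was the single gene lower in both ages. It was listed in 5 of 22 high and 9 of 22 low young cells and in 5 of 19 high and 13 of 19 low old cells. The differences were -1.43 and -1.64, and -1.10 and -1.67 after the fit on gene number.

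The 60 genes differed both in how many cells listed them and, with a smaller shift in old cells, in the level of the listing cells. The share of cells listing them was higher in the high set by a median of 27.3 percentage points in young and 21.1 in old cells, where all measured genes had 9.09 and 0. Among listing cells alone, the 55 of the 60 genes with 3 or more cells on each side at both ages had a median difference of 0.82 in young and 0.48 in old cells, where 1258 of all genes had 0.24 and -0.02. Of the 55, 37 were higher in the high set at both ages, and 3 by at least 1. Of the 1258, 368 were higher at both ages, and 30 by at least 1. The 60 genes were chosen by a high minus low difference of these same cells. The middle set lay between the other 2 in mean log2 in 42 of the 60 genes in young cells, in 42 in old cells and in 31 in both. No such count is given for all genes. An absent value in these data can be a failed estimate, and the depth per cell is not given.

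The 16 measured genes by which stroma supports blood cells are too few for a count of 0 to be read. Of 16 measured niche factors 3 were higher in young, 0 in old and 0 in both ages (all genes 26.8%, 9.65% and 4.32%), with medians of 0.79 in young and 0.25 in old cells. After the fit on gene number these medians were 0.30 and 0.21. Cxcl12 differed by 0.33 and 0.34 (0.13 in young cells after the fit on gene number). Kitl, the stem cell factor, differed by 0.92 and 0.54. Vcam1, an adhesion protein for blood cells, differed by 0.45 and 0.64 (0.29 in young cells after the fit on gene number). Angpt1, a ligand that quiets vessels and stem cells, differed by 1.52 and -0.32 (0.84 in young cells after the fit). Of 11 measured fibroblast and matrix genes and of 11 immediate early genes, 0 were higher or lower in both ages, and with 11 genes and 4.32% of all genes higher nothing is read from that.

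Genes of basic cell function were higher more often in young than in old cells, as were all genes (26.8% and 9.65%). Of 32 measured ribosomal protein genes 19 were higher in young Adipoq-high cells, 8 were higher and 5 lower in old ones, and 6 were higher in both ages (Rpl11, Rpl13, Rpl14, Rpl27, Rps2 and Rps23), where all genes had 4.32%. Of 23 mitochondrial respiration genes 13 were higher in young cells, 4 were higher and 3 lower in old cells, and 3 were higher in both ages (Ndufb9, Uqcrb and Cox7c). After the fit on gene number 3 ribosomal and 1 respiration gene were still higher in both ages, where all genes had 2.23%. The medians of these lists were 1.40 and 1.20 in young but 0.14 and 0.17 in old cells. After the fit they were 0.71 and 0.40 in young and 0.07 and 0.07 in old cells. Ribosomal protein genes have many near-identical pseudogene copies, so their values are uncertain. Of 9 measured genes of the unfolded protein response only P4hb, an enzyme of collagen folding, was higher in both ages (1.44 and 1.05) where 4.32% of all genes were, and it missed the rule after the fit on gene number (0.58 in young cells).

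By rank over all kept cells, the genes most like Adipoq in both ages were Rcn3 (Spearman rho 0.28 in 67 young and 0.30 in 58 old cells), Secisbp2l (0.37 and 0.26), Runx1 (0.25 and 0.28), Il1r1 (0.27 and 0.25) and Rpl27 (0.25 and 0.33). Cells of an age also share their range of gene numbers. The middle 95% of the 1389 genes lay between -0.13 and 0.36 in young and between -0.25 and 0.24 in old cells. All the genes named here lay above that range in old cells, and Secisbp2l alone did in young cells. They were picked as the highest, so this follows from the choice. The correlations are small and are given only to order the genes. Runx1, a transcription factor of blood and skeletal cells, differed by 1.16 and 1.21 between the sets and missed the rule because 16 old cells of each side listed it. After the fit on gene number its young difference was 0.40. Its middle set had the highest mean of log2 at both ages. That mean was 4.94 in young and 5.49 in old cells, against 4.74 and 4.80 in the high sets.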

How the data were processed

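RNA of 160 single cells was measured on Fluidigm C1 chips with SMARTer chemistry, per the labels' protocols. The values are FPKM deposited by the authors in 1 table. Cufflinks 2.1.1 and the build mm9 stand in the submitters' processing notes. The depth is unknown, since fragment numbers and filters are not given in the sources, and no count model was used.

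The table holds 31199 rows. The 7751 rows without a gene name were left out and rows sharing a name were summed (22866 names). Groups came from the age in the labels, and cell numbers pair nothing. Wells with several cells had been left out by microscopy, per the labels' protocols, and no doublet caller was run. Sides held the whole number of cells in 1 of 3 parts of each age, ties by column order. Values were compared as mean log2(FPKM + 1), a scale that understates changes of low genes. The fit on gene number is a straight line on log2 of the number of genes listed. Intervals are Clopper-Pearson. The steps were tested on simulated data.

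The members, gene lists and rules were chosen with earlier results of these data known. Named genes are the 15 with the largest smaller difference of the 2 ages in each direction (skipping predicted, ribosomal and small RNA genes), fat and bone genes past the rule or with a mean of 100 FPKM, members of other lists past the rule, the 5 highest in rho, and 6 of opposite sign. Others were named after their values were seen. Not every bone gene with a mean of 100 FPKM is given above. The values of 1 bone gene are not reported here. Python 3.11.15, pandas 2.3.3, scipy 1.17.1 and matplotlib 3.10.9 were used. In all, 13 planned and 3 added alternatives were run.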

Additional observations from a re-analysis of the deposited data

Results flagged for a closer look

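Of 1389 genes, 24 were higher in young and lower in old Adipoq-high cells by the rule, and for 2 genes the reverse held. Over all genes 26.8% were higher and 1.58% lower in young cells, and 9.65% higher and 7.85% lower in old cells. Whether more genes changed sign between the ages than these shares give was not tested. The difference between the ages was not tested, and each age is 1 sample. The 6 with the largest smaller difference are given, young first and old second. The joined row of Atp6v0c, a proton pump subunit, and Atp6v0c-ps2 differed by 2.95 and -1.82, with 13 high and 2 low young cells and 5 and 10 old cells listing it. Rps27l, a ribosomal protein relative, differed by 2.21 and -1.68 (1.42 in young cells after the fit on gene number). Ecm1, an extracellular matrix protein, differed by 1.76 and -1.68 (1.14 in young cells after the fit). Atp5k, a subunit of ATP synthase, differed by 1.66 and -2.18 (0.96 in young cells after the fit, past the rule no more). Myef2 differed by 1.56 and -1.53, and Tmem55a by 1.47 and -1.59.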

How the results depend on the processing

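The number of genes higher in both ages was 60 and ran from 10 to 180 over 16 alternatives. It was 145 with a pseudocount of 0.1, 13 with 2 sets per age, 143 with no minimum of genes, 31 after the fit on gene number, 180 with a fold of 0.5 and 10 with a fold of 1.5. With cells rescaled to the same sum it was 64, of which 33 were among the 60. By the log2 ratio of mean FPKM it was 59, of which 24 were, and with cells of 1000 or more genes 40, of which 26 were. With rescaled cells the median difference of all genes in old cells moved from 0.04 to 0.24. The number lower in both ages, 1, was 12 with the pseudocount of 0.1, 0 with 2 sets per age, 7 with 4 sets per age, 12 with cells of 1000 or more genes, 2 after the fit on gene number, 11 by the log2 ratio of mean FPKM, 18 and 0 with folds of 0.5 and 1.5, 0 with the highest row of each name, and 2 without the cell of highest Adipoq in each age. With cells of 1000 or more genes, higher genes were 76.9% of those that went one way in both ages, and by the log2 ratio of mean FPKM 84.3%, against 98.4%. With 1000 or more genes the young and old medians over all genes were 0.17 and -0.05.

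Fat genes higher in both ages, 0, numbered 2 with the pseudocount of 0.1, 1 with 4 sets per age, 1 with cells of 1000 or more genes, 3 with no minimum of genes, 2 with a fold of 0.5, 1 with the share of cells not required and 2 without the cell of highest Adipoq. Lpl was among them in 4 of these. Bone genes higher in both ages, 5, numbered 3 with rescaled cells (Ibsp, Sparc and Grem1) and 1 with 2 sets per age (Fgfr2). They numbered 2 with cells of 1000 or more genes (Atf4 and Fgfr2) and 1 with a fold of 1.5 (Fgfr2). Bone genes lower in both ages, 0, numbered 1 with the pseudocount of 0.1, with rescaled cells, with 4 sets per age and without cells of extreme summed FPKM, and 2 with cells of 1000 or more genes and with a fold of 0.5. They were Limch1 or Spp1. The cause of these changes was not tested.

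Of 28 named genes past the rule, 0 kept it under all 16 alternatives. No such gene could miss it with a fold of 0.5, with the share of cells not required or without the filter on listing cells. Leaving out joined rows touched only the genes of such rows. Keeping the rule under these alternatives was thus fixed in advance. Fgfr2, Hp, Il1r1, Kng1 and Trf kept it in 14, and each missed it by the log2 ratio of mean FPKM. Ibsp kept it in 12 and missed it with 2 sets per age, with cells of 1000 or more genes, by the log2 ratio of mean FPKM and with a fold of 1.5. The smaller difference of Cox7c changed sign by the log2 ratio of mean FPKM, to -0.0444. Under the filter, fat genes listed in more high cells of both ages numbered 6 to 19 and in more low cells 0 to 5, and bone genes 0 to 2 and 4 to 8. This tally counts listing cells only. The pseudocount, filter, fold, share rule, mean ratio and joined rows could therefore not change it, and the fit on gene number did not adjust it. No paired analysis was possible because the cell numbers shared by the ages are only names of different cells.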
